A study of Mus musculus with 5 samples.

Results

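Epcam, the claudins Cldn1, Cldn3, Cldn4, Cldn6 and Cldn7, and the tight junction genes Ocln, Tjp1, F11r and Marveld3 were followed in 5 RNA-seq libraries of mouse thyroid tumor cell lines. These 10 genes were taken by symbol from the 17923 genes that the libraries list, and all 10 were listed. The cell lines came from thyroid tumors driven by BrafV600E, an allele that every line carries, with Ctnnb1 (the gene of β-catenin) either intact in BVE-Ctnnb1wt or deleted in BVE-Ctnnb1null. The 2 BVE-Ctnnb1wt libraries carry the same line name, BVE, at passage 20, labelled as grown without thyroid-stimulating hormone, TSH, for replicate 1 and with it for replicate 2. The 3 BVE-Ctnnb1null libraries carry different line names, BVECTN_4 at passage 8 without TSH (replicate 1), BVECTN_4A at passage 11 (replicate 2) and BVECTN_5 at passage 7 (replicate 3), and the labels of the last 2 do not state TSH. The growth protocol differs from these labels, with about 25 passages for BVE-Ctnnb1wt, 20 for BVE-Ctnnb1null and bovine TSH at 4 mU/mL in the medium. The driver of the deletion, the age of the mice and whether a line is 1 clone are not given in the sources used here. Genotype, line and passage cannot be told apart, because all BVE-Ctnnb1wt RNA comes from a single line name. The p-values therefore measure the spread between these libraries, which may be technical within BVE-Ctnnb1wt.

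Tight junctions seal the space between neighbouring epithelial cells. Claudins are membrane proteins with 4 spans whose outer loops meet across the gap and set which ions pass, while occludin and Marveld3 belong to a separate family of membrane proteins in the same strands. F11r encodes the adhesion molecule JAM-A, Tjp1 encodes ZO-1, the scaffold that ties the strands to actin, and Epcam encodes an epithelial adhesion protein that binds Cldn7 and shields it from breakdown. Thyroid follicles need closed tight junctions to hold thyroglobulin in their lumen. β-catenin itself sits at the neighbouring adherens junction with E-cadherin and, in the nucleus, acts with TCF/LEF factors in Wnt signaling.

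Estimated read counts summed to 30432737 and 30713079 in BVE-Ctnnb1wt replicates 1 and 2, and to 29929677, 29360002 and 29415980 in BVE-Ctnnb1null replicates 1, 2 and 3. A count of 0 allows up to 3 counts in a library, and this limit covers counting error only. Levels are given as FPKM, which scales the reads of a gene by its length and by the size of the library, so that genes of different length can be compared. Ctnnb1 RNA was at an FPKM of 59.29 and 73.75 in BVE-Ctnnb1wt and at 124.58, 196.26 and 117.82 in the libraries labelled BVE-Ctnnb1null, so the label was not visible as a lower level (log2 fold change 0.55, standard error 0.44, adjusted p = 0.517). Values are summed over the whole gene and do not separate deleted exons, so the groups are called here by their labels.

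The 3 BVE-Ctnnb1null libraries differed widely from each other in these genes, with a median difference from the wt mean on log2(FPKM + 0.1) of 5.45, -3.28 and 2.13 in replicates 1, 2 and 3. BVE-Ctnnb1null replicate 1 had the highest FPKM of all 5 libraries for 10 of 10 genes, where 27.9% of the 13240 genes tested had it highest. BVE-Ctnnb1null replicate 2 had the lowest FPKM for 7 of 10, where the share of genes tested was 14.4%. The 10 genes were chosen with earlier results of these data known, so counts beside such shares are a description, not a test. The same 7 genes, Epcam, Cldn3, Cldn4, Cldn6, Cldn7, Ocln and Marveld3, followed the order null replicate 1, null replicate 3, both wt libraries, null replicate 2. That order was seen in 3.75% of the genes tested, and it was chosen for counting after the values were seen. For Cldn6 it held on FPKM only, since with the TMM scaling of the main test null replicate 3 (27.8 CPM, counts scaled to library size) lay just below both wt libraries (28.1 and 45.0 CPM). Ranked on that scaling, an alternative added after the data were seen, null replicate 1 was highest for 10 of 10 genes (26.1% of the genes tested), null replicate 2 lowest for 7 (20.9%) and the order was seen in 6 (3.56%). Summed over the 10 genes, FPKM was 94.38 and 97.82 in BVE-Ctnnb1wt and 3157, 45.02 and 380 in null replicates 1, 2 and 3.

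**Figure D1:**
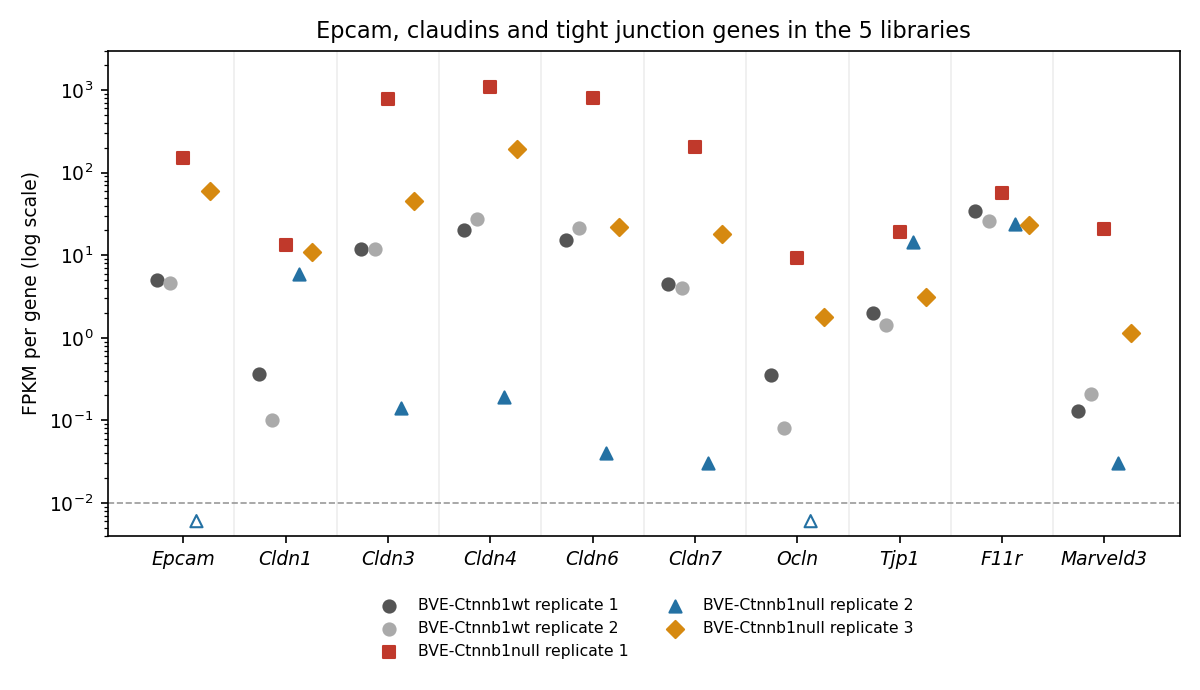
FPKM per gene (log axis) for the 10 genes in the 2 BVE-Ctnnb1wt libraries (circles) and BVE-Ctnnb1null replicates 1 (squares), 2 (triangles) and 3 (diamonds). Open triangles under the dashed line at 0.01, the lowest value above 0, are genes with 0 counts. Null replicate 1 lies on top for every gene, and null replicate 2 lies lowest for all but Cldn1, Tjp1 and F11r.

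For Epcam (NCBI gene 17075), 319 and 295 reads were counted in BVE-Ctnnb1wt, against 9414, 0 and 3632 in BVE-Ctnnb1null replicates 1, 2 and 3. As FPKM, these levels were 5.04 and 4.61 in BVE-Ctnnb1wt, then 152.05, 0 and 59.60. The wt libraries thus lay close together, while the null libraries held the highest, the second highest and the lowest value. Null replicate 1 was 31.5-fold and null replicate 3 was 12.3-fold above the wt mean, and null replicate 2 was at least 98.3-fold lower, with its 0 counts set to the limit of 3 counts in that library. Per group, the FPKM was 4.83 ± 0.304 (SD, n = 2) in BVE-Ctnnb1wt and 70.5 ± 76.6 (SD, n = 3) in BVE-Ctnnb1null.

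Cldn4, the most abundant of the 10 genes in null replicates 1 and 3, stood at an FPKM of 20.25 and 27.82 in the wt and 1086.62, 0.19 and 194.09 in null replicates 1, 2 and 3. Cldn3, a barrier-forming claudin whose gene lies beside Cldn4, had 11.91 and 12.02 in the wt and 788.71, 0.14 and 45.70 in the null libraries. Cldn7, the claudin that Epcam binds, had 4.47 and 4.02 in the wt and 206.40, 0.03 and 17.89 in the null libraries. All 3 claudins placed the libraries in the order of Epcam. In null replicate 2 they rested on 10 counts for Cldn4, 5 for Cldn3 and 1 for Cldn7. The ratio of the wt to this library was 130.0 for Cldn4 (95% exact interval 70.6 to 271.5), 88.6 for Cldn3 (37.9 to 273.6) and 163.3 for Cldn7 (29.1 to 6467), intervals that cover counting error only.

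Cldn6, a claudin known mainly from embryonic epithelia and some tumors, stood at an FPKM of 15.50 and 21.62 in the wt and 803.92, 0.04 and 22.19 in null replicates 1, 2 and 3. Null replicate 3 lay just above wt replicate 2, so only null replicate 1 was far above the wt, by 43.3-fold, and null replicate 2 held 2 counts, a ratio of wt to null of 416.5 (95% exact interval 115.1 to 3442). The fold of null replicate 1 over null replicate 3 was 36.2 for Cldn6, the widest of the 10 genes, against 17.3 for Cldn3, 11.5 for Cldn7, 5.60 for Cldn4 and 2.55 for Epcam. The genes that share the order of the libraries therefore did not share the size of the steps. Claudins resemble each other in their coding part, and the counting could have divided reads between close relatives such as Cldn6 and its neighbour Cldn9.

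Ocln, which encodes occludin, stood at an FPKM of 0.35 and 0.08 in the wt and 9.30, 0 and 1.80 in null replicates 1, 2 and 3. It had 35 and 8 counts in the wt, so its absence of counts in null replicate 2 places that library at least 6.88-fold lower than both wt libraries pooled. Against wt replicate 2 alone the bound was 2.55-fold, and against wt replicate 1 alone 11.3-fold, a comparison added after the data were seen. Marveld3, the relative of occludin, had 10 and 9 counts in the wt and 950, 2 and 51 in BVE-Ctnnb1null. With so few counts, the ratio of wt to null replicate 2 was 4.56 for Marveld3 (95% exact interval 1.10 to 40.4). Its FPKM was 20.73 in null replicate 1, 121.9-fold above the wt mean, which was the widest such fold among the 10 genes.

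Cldn1, Tjp1 and F11r did not follow Epcam, because null replicate 2 was neither their lowest nor their highest library, as for 55.1% of the genes tested. Cldn1, a claudin of the skin barrier and of many epithelia, had 36 and 10 counts in the wt and 1308, 581 and 1061 in BVE-Ctnnb1null replicates 1, 2 and 3. This gave an FPKM of 0.36 and 0.10 in the wt and 13.26, 6.00 and 10.93 in the null libraries, so the groups did not overlap, and the fold over the wt mean was 57.7, 26.1 and 47.5 in null replicates 1, 2 and 3. Tjp1 stood at an FPKM of 1.97 and 1.43 in the wt and 18.89, 14.59 and 3.16 in the null libraries, again with no overlap. F11r had 34.40 and 25.91 in the wt and 56.95, 24.00 and 23.50 in the null libraries, with null replicates 2 and 3 just under the lower wt library on FPKM and further below it with TMM scaling (49.1 and 48.4 against 88.7 CPM). Over the genes tested, 35.9% had all 3 null libraries above both wt libraries, against 2 of these 10 genes, and with TMM scaling 22.6% did, against the same 2. All 3 null libraries lay below both wt libraries on FPKM for 7.22% of the genes tested and for 0 of these 10, and with TMM scaling for 17.3% and for 0. A two-sided exact permutation test on log2(FPKM + 0.1) gave p = 0.1 for Cldn1, the smallest that 2 libraries against 3 allow, p = 0.2 for Tjp1 and p = 1.0 for Epcam.

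Tested over all 5 libraries with edgeR's quasi-likelihood test (Benjamini-Hochberg adjustment over all genes tested), 0 of the 10 genes passed an adjusted p of 0.05, as did 0 of the 13240 genes tested (0.0% in each direction). At an unadjusted p under 0.05, 2 of the 10 genes (Cldn1 and Tjp1) were higher, where the share of genes tested was 12.4%, and 0 were lower, where it was 6.07%. DESeq2 called 1113 genes higher (8.48%) and 487 lower (3.71%), among them Cldn1 of the 10 genes, and at an unadjusted p under 0.05 it gave 3 of the 10 genes as higher (background 16.5%) and 0 as lower (8.56%). After adjustment, limma on log2(FPKM + 0.1) called 1 gene higher and 5 lower. By edgeR, the log2 fold change was above 0 for 9 of the 10 genes, where 59.3% of the genes tested were above 0. For Cldn1 it was 4.95 with a standard error of 0.85, and its adjusted p of 0.180 was the lowest of the 10. Its adjusted p was 9.90e-08 with DESeq2, and the alternatives ranged from that value to 0.841. For Tjp1 it was 2.31 with a standard error of 0.83 (adjusted p = 0.231).

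For Epcam the log2 fold change was 3.35 with a standard error of 2.36 (adjusted p = 0.463). For Cldn3, Cldn4, Cldn6, Cldn7, Ocln and Marveld3 the log2 fold changes lay between 3.40 and 4.68 with standard errors between 2.31 and 2.67. The median standard error was 2.34 for the 10 genes and 0.67 for all genes tested, and the median log2 fold change was 3.64 against 0.29. On log2(FPKM + 0.1) these medians were 0.92 for the 10 genes and 0.61 for all genes, and on log2(FPKM + 0.01) they were 0.55 and 0.62, while on log2(FPKM + 1) they were 1.51 and 0.50, so the size of the distance depended on the scale. On log2(FPKM + 0.1) the difference was 0.98 for Epcam, 0.77 for Cldn3, 0.73 for Cldn4 and 0.85 for Cldn7. The value for F11r, -0.33 with a standard error of 0.57 (adjusted p = 0.778), became 0.20 when counts were scaled to library totals and 0.09 on log2(FPKM + 0.1). Without null replicate 1, the log2 fold change was 1.93 for Epcam, 1.41 for Ocln, 1.30 for Cldn4, 0.37 for Cldn7 and 0.24 for Cldn3. In the same fit it was -1.45 for Cldn6 and -1.01 for F11r. Without null replicate 2, 8 of the 10 genes had an unadjusted p under 0.05 and 0 passed after adjustment, with the lowest adjusted p at 0.141. All 8 were higher, where 12.8% of the genes tested were higher and 7.27% lower at that threshold. Without null replicate 1, 9 of the 10 genes were tested, all but Marveld3. Of these 9, 2 had an unadjusted p under 0.05, Cldn1 as higher (16.1% of the genes tested) and F11r as lower (11.5%).

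**Figure D2:**
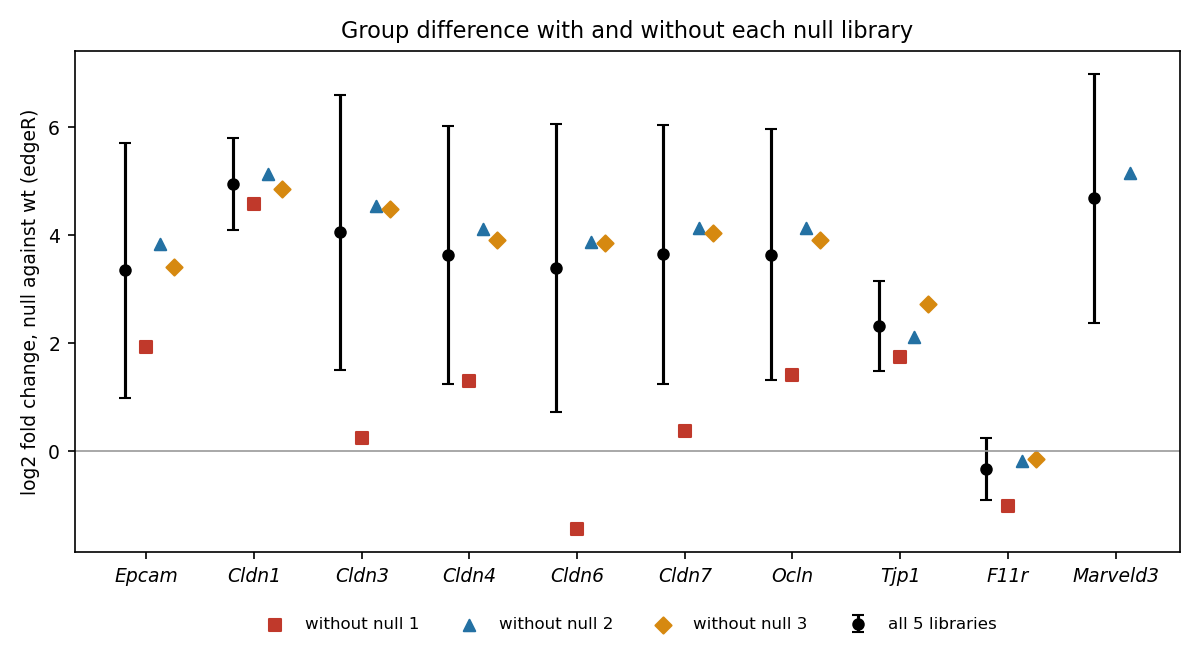
The log2 fold change of BVE-Ctnnb1null against BVE-Ctnnb1wt from edgeR for the 10 genes, with all 5 libraries (black circles, bars of 1 standard error) and without null replicate 1 (squares), 2 (triangles) or 3 (diamonds). The values without null replicate 1 lie lowest for each gene that has one, and below 0 for Cldn6 and F11r. Marveld3 has no value without null replicate 1 or 3, where it was under the filter on low counts.

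Each BVE-Ctnnb1null line was also set against both wt libraries by size alone, without a test, since each is a single library. A gene counted as higher where its FPKM was 1 or more and 4 times the higher wt value or more, and as lower where it was 4 or more times below the lower wt value, among genes at 1 or more in both wt libraries. In null replicate 1, 9 of the 10 genes were higher, all but F11r, where 16.5% of the 10455 genes at an FPKM of 1 or more there were. In null replicate 3, 6 of 10 were higher, namely Epcam, Cldn1, Cldn4, Cldn7, Ocln and Marveld3, where 17.4% of the 10824 genes that qualified were. In null replicate 2, 5 of the 7 genes that qualified were lower, where 3.19% of all such genes were, while 2 of the 3 at an FPKM of 1 or more there (Cldn1 and Tjp1) were higher, where 16.0% of the 10530 genes that qualified were. The 5 genes, Epcam, Cldn3, Cldn4, Cldn6 and Cldn7, were higher in null replicate 1 and lower in null replicate 2, as were 41 of 8374 genes (0.49%). In null replicates 1 and 3, 0 of the 7 were lower, where 4.74% and 2.82% of all such genes were.

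The makeup of the claudin family differed between the lines. Of 24 claudin genes looked for, 11 and 9 were listed in BVE-Ctnnb1wt and 16, 12 and 14 in null replicates 1, 2 and 3, and their summed FPKM was 96.3 and 93.9 in the wt and 2951, 28.1 and 331.3 in BVE-Ctnnb1null. The sum in BVE-Ctnnb1wt was shared mainly by Cldn12, a claudin of broad expression (41.66% and 25.57%), Cldn4 (21.02% and 29.62%) and Cldn6 (16.09% and 23.02%). In null replicate 1, Cldn4, Cldn6 and Cldn3 held 36.82%, 27.24% and 26.72%, and in null replicate 3 Cldn4 alone held 58.58%. In null replicate 2, Cldn12 held 75.73% and Cldn1 held 21.38%, and no other claudin reached an FPKM of 1 there. The FPKM of Cldn12 itself was 40.14 and 24.02 in the wt and 23.13, 21.25 and 34.86 in the null libraries (log2 fold change -0.85, standard error 0.44, adjusted p = 0.336). With TMM scaling all 3 null libraries lay below both wt libraries for Cldn12, at 79.6, 65.2 and 107.1 CPM against 178.7 and 123.6.

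**Figure D3:**
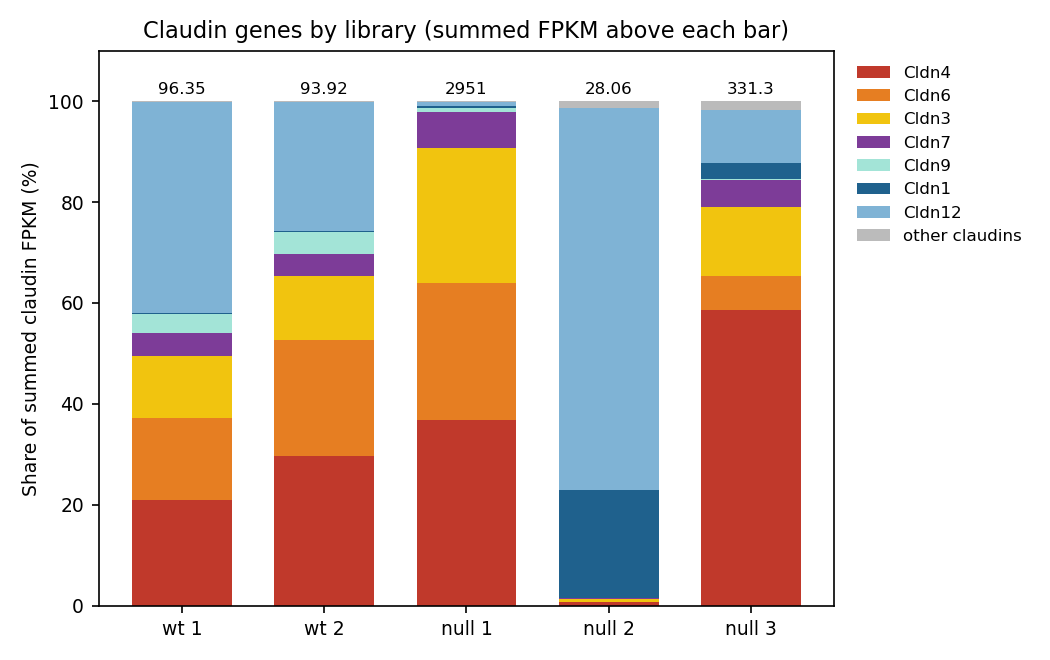
Share of each claudin gene in the summed claudin FPKM (%, stacked bars from 0) in the 2 BVE-Ctnnb1wt and 3 BVE-Ctnnb1null libraries, with the summed FPKM above each bar. Cldn4, Cldn6, Cldn3 and Cldn7 fill most of null replicates 1 and 3, and Cldn12 with Cldn1 fill null replicate 2.

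Of the 21 other claudin and claudin-domain genes, 16 were listed and 4 passed the filter on low counts (Cldn9, Cldn12, Cldn23 and Cldnd1), with 0 called by edgeR. Cldn9, the neighbour of Cldn6, stood at an FPKM of 3.50 and 4.14 in the wt and 24.80, 0.05 and 0.09 in null replicates 1, 2 and 3. Unlike Cldn6 it was thus near 0 in null replicate 3 as well. Cldn23 had 0.02 and 0.12 in the wt and 3.84, 0.18 and 1.23 in the null libraries (log2 fold change 4.04, standard error 1.70, adjusted p = 0.270). Cldnd1, a claudin-domain protein of unclear role, had 11.17 and 8.52 in the wt and 15.72, 27.80 and 52.16 in the null libraries. All 3 null libraries thus lay above both wt libraries, as for 35.9% of the genes tested, and null replicate 3, not 1, was the highest.

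Of 10 further membrane proteins of the tight junction, 8 were tested and 0 were called by edgeR, and 4 followed the order of Epcam (Marveld2, Lsr, Ildr1 and Crb3). Lsr, which marks the corners where 3 cells meet, stood at an FPKM of 1.86 and 1.26 in the wt and 121.50, 0.14 and 10.84 in null replicates 1, 2 and 3. Crb3, an apical polarity protein, had 2.08 and 2.45 in the wt and 111.64, 0.06 and 10.14 in the null libraries. Marveld2, the occludin relative at those corners, had 0.08 and 0.12 in the wt and 5.74, 0.06 and 0.65 in the null libraries. Igsf5, a JAM relative, was the member with the lowest unadjusted p, with 0.02 and 0.02 in the wt and 2.83, 0.21 and 1.83 in the null libraries (log2 fold change 5.83, standard error 1.65, adjusted p = 0.192). Cxadr, the junctional receptor for coxsackie and adenoviruses, was at 13.03 and 4.46 in BVE-Ctnnb1wt and at 11.85, 17.70 and 5.86 in BVE-Ctnnb1null, with no clear order. Jam2 and Jam3, chosen here after their values were seen, were lowest in null replicate 1 and highest in null replicate 3, with null replicate 2 above the wt. Jam3 had 1.85 and 2.03 in the wt and 0, 5.63 and 11.71 in the null libraries, and Jam2 had 1.08 and 1.22 in the wt and 0.12, 2.66 and 3.87 in the null libraries.

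The cytoplasmic side of the junction shared the high level of null replicate 1 with Epcam for part of its genes, but seldom the full order of the libraries. Of 24 scaffold and polarity genes, all were tested, 0 were called by edgeR, and 8 were higher at an unadjusted p under 0.05 (12.4% of all genes tested). The order of Epcam was seen in 1 of the 24 on FPKM (Pard6b), against 3.75% of all genes tested, and with TMM scaling in a different 1 (Arhgef18), against 3.56%. Null replicate 1 was the highest library for 12 of the 24 (27.9% of all genes tested), and at least 4-fold above both wt libraries for 12 of the 21 that qualified (16.5% of all genes that qualified). Null replicate 2 was the lowest for 4 of the 24 on FPKM (14.4% of all genes tested) and for 6 of the 24 with TMM scaling (20.9%). Patj, a polarity scaffold chosen here with its values known, was at 0.09 and 0.18 in BVE-Ctnnb1wt and at 13.12, 0.63 and 1.94 in BVE-Ctnnb1null. The FPKM of all 3 null libraries lay above both wt libraries for 15 of the 24, where 35.9% of all genes tested did, and with TMM scaling for 10 of the 24, where 22.6% did. Their median log2 fold change was 1.12. Ybx3, a Y-box protein that binds ZO-1, was the most abundant, with 385.17 and 327.22 in the wt and 265.35, 540.00 and 333.16 in the null libraries. Amotl2, an angiomotin, was at 30.72 and 40.82 in BVE-Ctnnb1wt and at 27.57, 27.99 and 68.06 in BVE-Ctnnb1null. Both abundant genes ordered the libraries differently from each other and from Epcam. Mpdz, a scaffold of many PDZ domains, had 3 and 0 counts in the wt and 70, 529 and 472 counts in the null libraries, with an adjusted p of 0.180, and for Magi3, another PDZ scaffold, the log2 fold change reached 1.95, with a standard error of 0.51 and an adjusted p of 0.191.

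The Epcam protein is cut by the membrane protease matriptase (St14), which the inhibitors Spint1 and Spint2 hold back and which acts together with the protease Prss8. These 4 genes all followed the order of Epcam, among the 10 genes of their list. St14 stood at an FPKM of 2.08 and 2.55 in the wt and 96.13, 0.02 and 12.56 in null replicates 1, 2 and 3. Prss8 was at 1.04 and 1.08 in BVE-Ctnnb1wt and at 61.64, 0.07 and 8.57 in BVE-Ctnnb1null. Spint2 had 27.77 and 27.24 in the wt and 685.27, 25.55 and 127.33 in the null libraries, so its null replicate 2 was only just below the wt. Cd9, a tetraspanin found with Epcam, and Adam10, a sheddase, were instead above both wt libraries in all 3 null libraries. On FPKM this held for 4 of the 10 genes of the list (Cd9, Cd44, Adam10 and Bace1), where 35.9% of all genes tested did so. With TMM scaling it held for the same 4, against 22.6%. By edgeR, the log2 fold change was 1.55 for Cd9 (standard error 0.47, adjusted p = 0.199) and 1.67 for Adam10 (standard error 0.45, adjusted p = 0.191). Cd44, an adhesion receptor found with Epcam, was at 20.38 and 13.95 in BVE-Ctnnb1wt and at 42.85, 84.49 and 59.39 in BVE-Ctnnb1null.

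**Figure D4:**
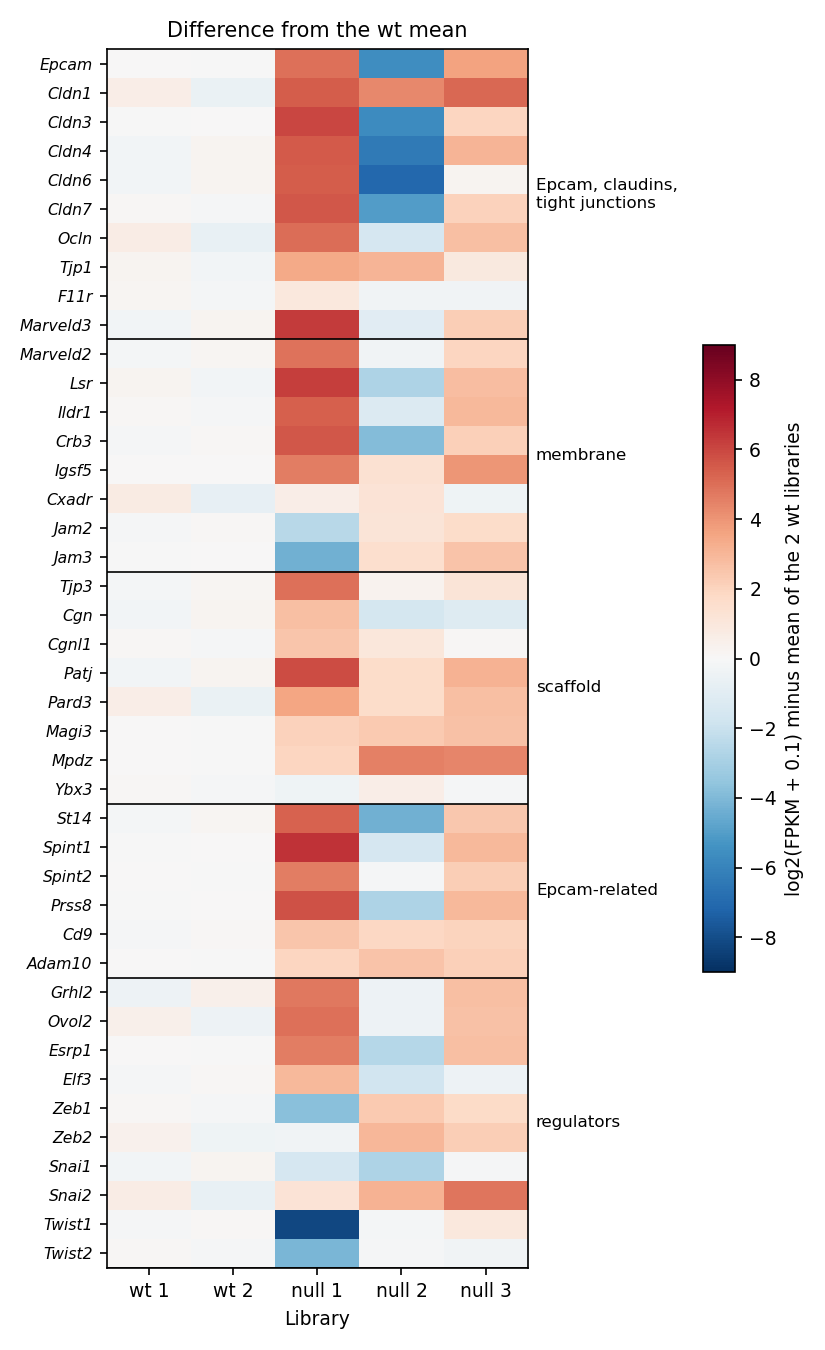
Difference of log2(FPKM + 0.1) from the mean of the 2 BVE-Ctnnb1wt libraries (colour, red above and blue below) for the 10 genes and a selection from the lists of other junction membrane proteins, scaffolds, Epcam-related genes and regulators (rows) in each library (columns). Most genes of the membrane and Epcam-related blocks are red in null replicates 1 and 3 and blue or pale in null replicate 2, while scaffolds such as Mpdz and Magi3 are red in all 3.

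By the distance between centred log2(FPKM + 0.1) profiles over the 5 libraries, the 5 genes most like Epcam among 9138 ranked were S100a14, Cldn4, Ap1m2, Rab25 and Cdh1, with a root mean square distance between 0.397 and 0.665. S100a14, a small calcium-binding protein of epithelia, stood at an FPKM of 16.63 and 22.50 in the wt and 750.23, 0.16 and 161.12 in null replicates 1, 2 and 3. Cdh1, which encodes E-cadherin, had 1.94 and 1.62 in the wt and 135.74, 0 and 20.92 in the null libraries. Ap1m2 and Rab25, which serve membrane traffic in polarised epithelia, were also at 0 and 0.07 in null replicate 2. Cldn7 ranked 7, Cldn3 11, Cldn6 35, Ocln 78 and Marveld3 124, while F11r, Cldn1 and Tjp1 ranked 1806, 5483 and 7240. This likeness rests on 5 libraries of 4 line names and is given as a description.

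The promoter sequences of RefSeq (GRCm38.p6) were searched because 7 of the 10 genes share an order of the libraries on FPKM. The table holds 11 windows, each from 250 bases before to 50 after a start, for 9 of the 10 genes, all but Marveld3. The build used for the deposited values is not given in the sources used here, so the coordinates refer to the RefSeq table alone. The letters CACCTG, read on both strands (CAGGTG on the other), are an E-box that repressors of the Snai and Zeb families are known to bind. They occurred in windows of 7 of the 9 genes (Epcam, Cldn3, Cldn4, Cldn6, Cldn7, Ocln and F11r), against 22.6% of the 27025 genes in the table. They were not in the windows of Cldn1 and Tjp1. The share over all genes was not matched for the base composition of the windows. A match is not a bound site, and no binding was measured here. The whole windows of Epcam (plus strand of chr17:87635729-87636028) and Cldn1 (minus strand of chr16:26371790-26372089) are shown as an example of a window with and a window without the match. The 7 genes with a match are not the 7 that share the order of the libraries, since F11r has a match and does not share it, and Marveld3 was not in the table. Both read in the direction of the gene, with CACCTG or CAGGTG in capitals.
Epcam: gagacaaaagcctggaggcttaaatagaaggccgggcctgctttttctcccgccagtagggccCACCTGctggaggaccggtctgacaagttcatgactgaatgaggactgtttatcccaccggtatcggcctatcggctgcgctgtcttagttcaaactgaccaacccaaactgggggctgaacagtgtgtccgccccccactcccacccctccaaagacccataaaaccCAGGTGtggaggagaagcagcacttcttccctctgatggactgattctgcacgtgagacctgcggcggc
Cldn1: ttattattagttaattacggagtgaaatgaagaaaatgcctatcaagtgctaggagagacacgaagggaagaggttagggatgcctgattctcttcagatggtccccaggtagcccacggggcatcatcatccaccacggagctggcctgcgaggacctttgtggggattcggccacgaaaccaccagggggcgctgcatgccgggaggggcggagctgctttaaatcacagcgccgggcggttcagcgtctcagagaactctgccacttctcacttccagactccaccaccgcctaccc

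For the other genes with a match, a stretch of up to 12 bases on each side is shown in the direction of the gene, with the match in capitals and its position in GRCm38.p6 before the sequence. They show that the flanking bases differ from gene to gene, and that Cldn4, Cldn6, Cldn7 and Ocln have 2 matches each.
Cldn3 (chr5:134986245-134986250, plus strand): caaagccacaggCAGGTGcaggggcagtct
Cldn4 (chr5:134946943-134946948, minus strand): ctttaactgcagCACCTGtggccgcccttt
Cldn4 (chr5:134946918-134946923, minus strand): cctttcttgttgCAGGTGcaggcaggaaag
Cldn6 (chr17:23679272-23679277, plus strand): gggaaacgcacgCAGGTGgctatcgccgca
Cldn6 (chr17:23679405-23679410, plus strand): cagtctcttttgCAGGTGagcc
Cldn7 (chr11:69965324-69965329, plus strand): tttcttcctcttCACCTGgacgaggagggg
Cldn7 (chr11:69965364-69965369, plus strand): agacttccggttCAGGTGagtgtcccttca
F11r (chr1:171437439-171437444, plus strand): agttcggggttgCACCTGcgtacggtgagt
Ocln (chr13:100552706-100552711, minus strand): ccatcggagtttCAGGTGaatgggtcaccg
Ocln (chr13:100552561-100552566, minus strand): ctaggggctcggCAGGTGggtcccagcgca

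Of the other motifs searched, the GC box GGGCGG occurred in windows of all 9 genes, against 38.2% of genes in the table. The letters CTTTGA, a form of the TCF/LEF core, occurred in 0 of the 9, against 18.2%. The Grainyhead motif AACCNGGTT also occurred in 0, against 0.3%. Both are absent from these windows only. The form of the core that ends in T, CTTTGT, was not searched, and the windows of Cldn1 and Cldn4 hold it. None of the motifs contains another.

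The factors that are known to bind such sequences were measured too. Of 6 repressors, all were tested and 0 were called by edgeR. Zeb1 stood at an FPKM of 1.70 and 1.39 in the wt and 0.02, 8.09 and 5.36 in null replicates 1, 2 and 3, and Zeb2 had 0.26 and 0.11 in the wt and 0.12, 2.04 and 1.15 in the null libraries. Both Zeb genes, named after their values were seen, were thus highest in null replicate 2, with null replicate 3 second. Twist1, the most abundant repressor in all libraries but null replicate 1, where Snai1 led, had 32.51 and 36.12 in the wt and 0.02, 30.36 and 65.00 in the null libraries. Twist2 had 30.63 and 27.59 in the wt and 1.59, 27.44 and 23.39 in the null libraries. Snai1 was lowest in null replicate 2, with 23.61 and 31.79 in the wt and 9.54, 3.87 and 25.08 in the null libraries. Snai2 had 0.22 and 0.03 in the wt and 0.37, 1.70 and 5.56 in the null libraries (log2 fold change 3.77, standard error 1.49, adjusted p = 0.253).

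Among 11 epithelial regulators, 9 were tested and 0 were called by edgeR. Of the 9, 8 had their highest FPKM in null replicate 1, where 27.9% of all genes tested did. Grhl2, a Grainyhead factor of epithelial cells, had 0.01 and 0.10 in the wt and 3.82, 0.01 and 0.85 in null replicates 1, 2 and 3. Ovol2, a repressor of mesenchymal genes, had 4 and 0 counts in the wt and 174, 0 and 33 in the null libraries. Elf3, an epithelial ETS factor, had the highest mean FPKM of the list, with 8.0 and 9.06 in the wt and 65.12, 2.49 and 6.17 in the null libraries. Klf5, a zinc finger factor, was the most abundant of the list in wt replicate 1 and null replicate 2. It was at 8.98 and 4.45 in BVE-Ctnnb1wt and at 29.02, 14.76 and 5.28 in BVE-Ctnnb1null. Esrp2, an epithelial splicing regulator, had 0.91 and 0.53 in the wt and 19.89, 0.29 and 1.86 in the null libraries.

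Markers of cell types were read beside these results, since in bulk RNA fewer cells of a type and less RNA per cell cannot be told apart. The libraries are labelled as thyroid epithelial cells. Of 13 thyroid follicular markers 5 were tested, and Slc26a4, Duox2, Duoxa2 and Iyd, which act in iodide handling and hormone making, had at most 5 counts in any library. Slc5a5, the iodide transporter, had 94 and 33 counts in BVE-Ctnnb1wt and 576, 4 and 12 in BVE-Ctnnb1null, so it was highest in null replicate 1 and lowest in null replicate 2. The summed FPKM of this list was 15.28 and 20.63 in the wt and 35.20, 68.54 and 4.86 in null replicates 1, 2 and 3. Its most abundant gene was the thyroid factor Nkx2-1 (9.21 and 15.02 in the wt, 9.26, 34.83 and 0.26 in the null libraries) except in null replicates 1 and 3, where it was Pax8 (18.15 and 2.56). Pax8 was 12.78 in null replicate 2 and at most 0.40 in BVE-Ctnnb1wt. Null replicate 2, lowest for Epcam, had the highest Nkx2-1. Hhex, another thyroid factor, was also highest there (20.24, against at most 4.14 elsewhere). For thyroglobulin (Tg), 211 and 230 reads were counted in BVE-Ctnnb1wt and 10, 128 and 86 in BVE-Ctnnb1null.

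The 5 general epithelial markers summed to 1068 and 1737 FPKM in the wt and 11910, 705.5 and 1144 in null replicates 1, 2 and 3, led by Krt8 in the wt, Krt7 in null replicates 1 and 3 and Krt18 in null replicate 2. Null replicate 2 had Krt18 (346.31) and Krt8 (230.48) although Cdh1 had 0 counts, and Krt19, a keratin of simple epithelia, was at 17.77 there against 2244.42 in null replicate 1. The 12 fibroblast and mesenchymal markers summed to 1972 and 3820 in the wt and 320.7, 3591 and 4219 in the null libraries, led by Vim in all but null replicate 1, where Fn1 led. In null replicate 1, Acta2, Col3a1, Pdgfrb and Lum were at 0 counts (Lum did not exceed an FPKM of 0.14 in any library) and Vim was 85.10, against 1477.77 and 3405.92 in the wt. Null replicate 3 alone had high Dcn (84.66), Thy1 (88.47) and Postn (101.56), markers of fibroblasts, beside its Epcam of 59.60, while Lum was 0.02 there. The other libraries did not exceed 0.24 for any of these 3 genes, which were named with their values known. Other markers of the list were not limited to null replicate 3. Col1a1 was at 161.02 and 118.44 in the wt and at 1.11, 104.06 and 570.48 in null replicates 1, 2 and 3. Acta2 was at 81.89 and 71.30 in the wt and at 191.86 and 942.16 in null replicates 2 and 3. Pdgfrb was at 5.22 and 5.06 in the wt and at 20.80 and 23.37 in null replicates 2 and 3. Endothelial markers summed to at most 0.68 (null replicate 3, led by Kdr), with Pecam1 and Cdh5 at no more than 0.04 in any library. Of 6 leukocyte markers, Ptprc, Adgre1 and Cd3e were not listed in any library, and Cd68, a lysosomal protein not limited to macrophages, led with 6.09 and 14.20 in the wt and 59.81, 1.00 and 39.91 in the null libraries, while Lyz2, a lysozyme of macrophages, did not exceed 1.39. The part of these markers in the levels of Epcam and the claudins was not tested.

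Most of the 10 genes were listed with a single RefSeq transcript. Tjp1 had 2, of 6891 and 7054 bases, and the longer one held 13.7% and 28.0% of the FPKM in the wt and 55.7%, 15.8% and 24.4% in null replicates 1, 2 and 3. The library highest for Epcam was thus the only one in which the longer Tjp1 transcript held the larger share. Cldn7 also had 2 transcripts, with the main one (NM_016887) at 4.47 and 4.02 in the wt and 202.54, 0 and 17.23 in the null libraries, and Marveld3 had 2, with too few counts in the wt for a share to be read. How reads were divided between transcripts is not given in the sources used here, so these shares are estimates without a test.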

How the data were processed

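Total RNA of the 5 libraries was sequenced with TruSeq libraries on an Illumina HiSeq instrument. Which aligner, counter, genome build and annotation were used is not given in the sources used here. The authors deposited 1 file a library, with the estimated count and the FPKM of every RefSeq transcript, and no pooled column. The lowest FPKM above 0 was 0.01. Estimated counts were summed per NCBI gene number and rounded, and the deposited FPKM was summed likewise. Of 17923 genes, 17866 had a symbol in RefSeq GRCm38.p6. The main test was edgeR 4.0.16 in R 4.3.3 (TMM, filterByExpr, quasi-likelihood test) over 13240 genes, with Benjamini-Hochberg adjustment, and adjusted p values printed without another tool name come from it. The alternatives used DESeq2 1.42.0, library totals, other filters, limma 3.58.1 on log2 FPKM with 0.1, 0.01 or 1 added, each library left out in turn, and a replicate block. The edgeR, DESeq2 and limma fits were also run on simulated counts with known group changes and the same dispersion for all genes. That setting lacks the wide differences between null lines seen here, and its outcome is not used in the text. Standard errors given for edgeR are the absolute log2 fold change divided by the square root of the test's F statistic. Exact tests and intervals used scipy 1.17.1 in Python 3.11.15. The 10 genes and the lists (124 further symbols, 9 of them not listed in any library, Pals1 matched as an older symbol) were chosen with earlier results of these data known. Named from each list were the 3 genes of highest mean FPKM and the 2 of lowest unadjusted p, members that share the order of Epcam, and a few that the text marks as picked with their values known. Protein sequences were not used here. A few genes that the naming rule covers are not reported here.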

Additional observations from a re-analysis of the deposited data

How the results depend on the processing

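Under every alternative run, 0 of the 10 genes passed an adjusted p of 0.05 except Cldn1 with DESeq2 (log2 fold change 4.87, 1 gene called). Over all genes, edgeR called 0 higher and 0 lower, DESeq2 1113 and 487, limma 1 higher with each of 3 pseudocounts and 5, 3 and 7 lower with 0.1, 0.01 and 1 added, edgeR without the filter 4 lower, and edgeR with at least 10 counts in every library 1 lower. That last filter kept 4 of the 10 genes, since it drops genes near 0 in null replicate 2. Cldn3, Cldn4 and Cldn7 had the same sign but lower values on log2(FPKM + 0.01), at 0.55, 0.55 and 0.32. The sign of Cldn6 changed on log2(FPKM + 0.1) (-0.44, also without a filter) and on log2(FPKM + 0.01) (-0.93), and that of Epcam on log2(FPKM + 0.01) (-0.10). F11r changed sign with library totals (0.20) and in each limma fit (0.09). Leaving out 1 library moved Cldn6 between -1.45 (without null replicate 1) and 3.88 (without null replicate 2), and Epcam between 1.93 and 3.84. The replicate numbers do not pair the libraries, which carry different line names, and deviations of same-numbered libraries correlated at -0.121 and -0.115. With the replicate number as a block, which takes null replicate 3 out of the contrast, the values were -1.27 for Epcam, -0.38 for Cldn3, -1.07 for Cldn4, -1.42 for Cldn6, -0.35 for Cldn7 and -0.30 for the median of the 10 genes, with 0 calls. Where a wt library was left out, the other is assumed to vary like the null libraries. Depth limits only the genes near 0 counts. The cause of the other changes was not tested.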

Other observations

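The 2 BVE-Ctnnb1wt libraries, which share a line name and differ in their TSH label, had an FPKM of wt replicate 1 over replicate 2 of 3.60 for Cldn1 and 4.38 for Ocln. These folds rest on 36 and 10 counts for Cldn1 and on 35 and 8 for Ocln. For Epcam, Cldn3 and Cldn7 the same fold lay between 0.991 and 1.11. With 1 library for each TSH label there is no replicate check.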
